A study of Homo sapiens with 6 samples.

Results

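The mitochondrial ribosomal protein genes were taken as the rows of the deposited table whose gene symbol is MRPL or MRPS with a number and, for paralogues, a letter from A to C. This rule found 76 of the 37879 rows, 47 for the large subunit (MRPL) and 29 for the small subunit (MRPS), and each symbol had 1 row. RNA came from HEK293T, a human embryonic kidney line that carries the SV40 large T antigen. In the 3 control samples the cells had been transfected with an empty vector, and in the 3 Stau1 samples with a plasmid for Stau155-FLAG, the tagged 55-kDa isoform of Staufen1. Staufen1 is a protein that binds double-stranded RNA. Per the study's methods, a Rous sarcoma virus promoter drives the plasmid. Both groups were arrested in prometaphase with nocodazole, which blocks spindle assembly, at 50 ng/ml for 15 h per the labels (the methods give a longer time). Total RNA was hybridised to 6 Illumina HumanWG-6 v3 BeadChip arrays, 1 per sample, and the comparison asked whether making more Stau1 changed transcript levels in arrested cells. The labels do not say whether replicates were separate cultures, so p-values measure only the spread between these samples.

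Mitochondria keep a ribosome of their own, which makes the few proteins coded by the mitochondrial genome, all of them subunits of the respiratory chain and of ATP synthase. Its RNAs are transcribed inside the organelle, but every one of its proteins is coded in the nucleus, translated in the cytosol and imported. Some of these proteins descend from bacterial ribosomal proteins, and the others were added in the mitochondrial lineage. Proteins of both kinds are found in each subunit, and their genes are used in almost every cell. Some names depart from the particle: MRPS30 and MRPS18A are named for the small subunit but lie in the large subunit of the assembled ribosome. MRPS36 was later assigned to the 2-oxoglutarate dehydrogenase complex. All 3 were kept under the rule by name.

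The members are scattered over the genome, on 21 chromosomes as the table gives them, yet their promoters share sequence. Windows of 300 bases, from 250 before to 50 after the gene start, were available from RefSeq (GRCh38.p14) for 67 of the 76 members and for 15843 protein-coding genes in all. The letters AAGATGGC, which match the binding motif of the transcription factor YY1, stood on either strand in 21 of the 67 windows (31.3%), against 4.66% of all windows. The share was 10.1% for cytosolic ribosomal protein genes and 16.1% for nuclear genes of the respiratory chain. These matches lay close to the start, with a median centre 15 bases downstream, and 16 of the 22 matches were centred after it. A gene with several starts (11 of the 67 members, 16.4%, and 25.6% of all genes) was counted once if any of its windows held the motif, and a site seen from several starts was counted once. The members whose array values are given one by one below and that hold this motif are shown in 30-base windows, read along the gene, with AAGATGGC in capitals.
MRPS30, chr5:44808949-44808978, plus strand: aatcgcgggcaAAGATGGCggcggccaggt
MRPL52, chr14:22829778-22829807, plus strand: tacgatgacccAAGATGGCggagccgtgat
MRPL51, chr12:6493223-6493252, minus strand: gggtaaggcccAAGATGGCtgtcttcgcct
MRPS27, chr5:72320206-72320235, minus strand: tggtacgctccAAGATGGCtgcctccatag
MRPS18A, chr6:43687764-43687793, minus strand: gtaggtttttgAAGATGGCggccctcaagg
MRPS18B, chr6:30617852-30617881, plus strand: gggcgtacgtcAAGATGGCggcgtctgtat
MRPL50, chr9:101398577-101398606, minus strand: ggatctcatcgAAGATGGCggcgcgatctg

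The motif holds the letters ATG, so a match downstream of the start may cover a start codon, and reading frames were not examined here.

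A core of the ETS family, CCGGAAG, which factors such as GABPA bind, stood in 29 of the 67 windows (43.3%), against 16.5% of all windows. Cytosolic ribosomal protein genes held it in 34.8% and respiratory chain genes in 26.8%. The 38 matches had a median centre 21 bases before the start, and 33 lay within 100 bases of it. Of the members just shown, MRPL51, MRPL52 and MRPS18A held it as well. Windows of the other members with single values below follow, with each match in capitals, and CTTCCGG is the same motif on the other strand.
MRPL33, chr2:27771700-27771729, plus strand: cgggccgtgccCCGGAAGcagttgttgttg
MRPL40, chr22:19432523-19432552, plus strand: ggggcgcacgcCCGGAAGcggcgagggtag
MRPS33, chr7:141014934-141014963, minus strand: agagggcgggcCTTCCGGgacgagggcgcg
MRPS16, chr10:73252621-73252650, minus strand: cggatcatccgCTTCCGGagtcgaggtttt
MRPS18C, chr4:83455825-83455854, plus strand: gggctcgcggaCCGGAAGcacgcataaact
MRPS22, chr3:139343896-139343925, plus strand: tctataagggcCCGGAAGaCTTCCGGccct
MRPS26, chr20:3046004-3046033, plus strand: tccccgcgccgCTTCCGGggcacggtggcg

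Large and small subunit genes held both motifs at similar shares, 42.5% and 44.4% for CCGGAAG and 32.5% and 29.6% for AAGATGGC. The fused form, in which the last AAG of CCGGAAG is the first AAG of AAGATGGC, was in 0 members and in 4 windows of all genes. The NRF1 palindrome was in 1 member window (1.49%, against 1.99% of all windows). CCAAT was in 34.3% of member windows and 42.1% of all windows, and TATAAA in 4.48% and 12.4%. All motifs were searched on both strands, and a match describes letters, not binding.

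Some members also start close to a gene that runs the other way, called a divergent neighbour here. Whether such pairs share promoter elements was not tested. Of the 67, 19 (28.4%) had a protein-coding gene on the opposite strand starting within 1000 bases upstream, against 12.3% of all genes, at a median distance of 210 bases. MRPL46 and MRPS11, of different subunits, face each other across 320 bases. MRPL49 lies 49 bases from FAU, which codes for a cytosolic ribosomal protein fused to a ubiquitin-like one, and MRPS12 lies 181 bases from SARS2, the mitochondrial seryl-tRNA synthetase.

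These genes were well measured. A row was kept where its detection p, which compares the intensity with negative control beads on the same array, was under 0.05 on at least 3 arrays, and 13285 rows (35.1%) were kept. All 76 members were kept, and 73 of them (96.1%) were detected on all 6 arrays, against 82.3% of kept rows. The other 3, MRPL27, MRPL4 and MRPS18C, were detected on 5 arrays, and each is a mean over several probes whose detection p is a combined value. In all, 28 member rows averaged several probes. The raw intensities of the members ran from 176.5 to 20720, and after background correction, quantile normalization and log2 the members stood at a median percentile of 87.2 among kept rows. The lowest was MRPS14, at the 41.9th percentile. At least 24 beads stood behind every value, and the median standard error over beads was 0.048 on the log2 scale.

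Over the series, the median raw intensity of an array ran from 83.0 to 102.2, and 12730 to 13469 rows were detected per array. Pearson's r across kept rows was 0.987 to 0.992 between control arrays, 0.994 to 0.996 between Stau1 arrays and 0.989 to 0.996 across groups. Control replicate 1 had the lowest array weight (0.399). Of the 6 marker rows fixed for HEK293T, 5 were kept, and all 5 mitotic markers were detected on every array. Of 5 blood cell markers 1 was kept (LYZ, detected on 5 arrays, change -0.18), and of 5 fibroblast markers 2 were (COL1A1, -0.25, and FBLN1, -0.15). The part of these cell types in the results was not tested. Values on single arrays are given below in the order of the replicates, 1 to 3. STAU1 itself read 11.19, 11.38 and 11.36 (log2 intensity) on the control arrays and 11.39, 11.51 and 11.47 on the Stau1 arrays, a change of 0.15 (SE 0.09; limma, adjusted p = 0.999). Its row averages several probes, and how far it reads the plasmid was not analysed here.

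No mitochondrial ribosomal protein transcript differed between the groups by more than the spread between arrays allowed the test to call. In limma, with Benjamini-Hochberg adjustment over all 13285 kept rows, 0 of the 76 members passed an adjusted p of 0.05 (0.0% of all rows passed), and the lowest adjusted p was 0.999. At an unadjusted p under 0.05 there were also 0 members, against 3.73% of kept rows (495 rows; 2.4% higher and 1.32% lower with Stau1), and the lowest member p was 0.058. The groups did not overlap in 1 of the 76 (1.32%), against 7.91% of kept rows, 4.51% with the Stau1 arrays above and 3.4% with them below. The methods' t-test gave 1 member at an unadjusted p under 0.05, against 3.49% of kept rows, and 0 after adjustment or past a 2-fold difference. An exact two-sided permutation test over 3 and 3 arrays cannot go below 0.1, and 1 member reached that value. Without control replicate 3, limma called 39 rows (0.294%), and 0 members were among them.

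The sizes of the changes were small as well. The log2 change, Stau1 minus control, ran from -0.14 (MRPS14 and MRPL33) to 0.19 (MRPS6), which is 1.14-fold. The median absolute change was 0.034, against 0.093 over all kept rows. Only 10 members (13.2%) differed by more than 0.1 in either direction, against 46.8% of kept rows, and 0 by more than 0.2, against 18.0%. Changes were positive in 33 members and negative in 43 (43.4% positive, against 49.4% of kept rows), with a median of -0.010, and the median over all kept rows was -0.002. The 95% intervals reached a median of 0.22 to either side, a factor of 1.16, and at the widest 0.37, a factor of 1.29. All 76 intervals lay within 1.5-fold in either direction, from a lowest bound of -0.50 (MRPS14) to a highest of 0.43 (MRPS28). Smaller differences could not be resolved with 3 arrays a group.

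**Figure D1:**
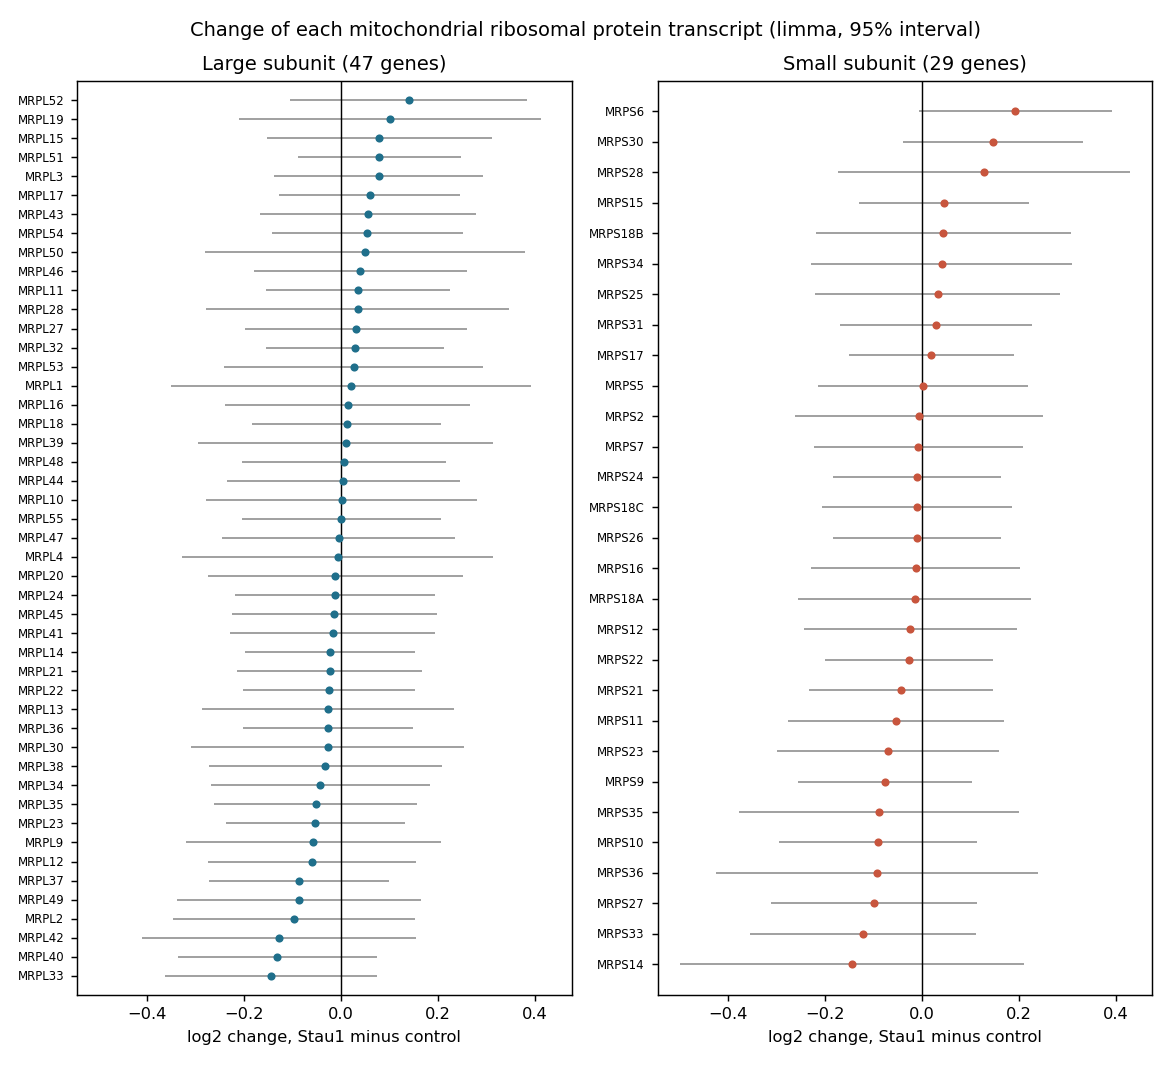
Log2 change (Stau1 minus control) of each of the 47 large subunit rows and 29 small subunit rows, sorted within each subunit; points are limma estimates and lines their 95% intervals over 3 and 3 arrays. Every interval crosses 0, and the estimates lie between -0.14 and 0.19.

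Differences were smaller in the brightest rows, and the members were bright. With the kept rows split by mean intensity into 4 equal bins, 62 of the 76 members lay in the brightest bin, 12 in the next, 2 in the one below and 0 in the dimmest. Within the brightest bin the median absolute change was 0.043 for members and 0.065 for all rows, and groups did not overlap in 1 member and in 6.38% of rows. In the next bin it was 0.024 for members and 0.094 for all rows, and in the one below 0.119 for the 2 members and 0.114 for all rows. The median SD within groups was 0.11 for members (0.03 to 0.28) and 0.16 for kept rows, and in the brightest bin 0.108 and 0.123.

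**Figure D2:**
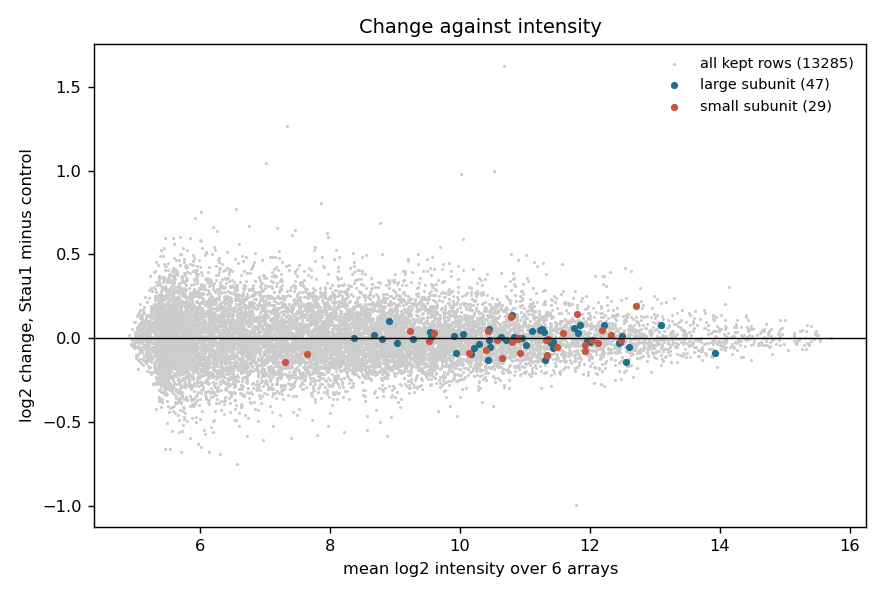
Log2 change (Stau1 minus control) against the mean log2 intensity over 6 arrays, for all 13285 kept rows (grey), large subunit rows (blue) and small subunit rows (red). The members sit to the right, at a median percentile of 87.2, and close to 0, with a median absolute change of 0.034.

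The largest upward difference was in MRPS6, a protein of the small subunit with a bacterial counterpart. The control arrays read 12.44, 12.65 and 12.76 and the Stau1 arrays 12.82, 12.76 and 12.86. The groups met at 12.76, where control replicate 3 was just above Stau1 replicate 2. The change was 0.19 (SE 0.09; limma, adjusted p = 0.999; exact two-sided permutation p = 0.2). Without control replicate 1 the change of MRPS6 was 0.10. SLC5A3, a gene within the MRPS6 locus, was detected on 0 of the 6 arrays.

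MRPS30, a mitochondrial addition, was the only member whose groups did not overlap. Its values were 11.73, 11.65 and 11.81 in the control arrays and 11.91, 11.89 and 11.82 in the Stau1 arrays. The gap between control replicate 3 and Stau1 replicate 3 was narrow, 11.81 against 11.82. The change was 0.15 (SE 0.09; limma, adjusted p = 0.999; exact two-sided permutation p = 0.1, the smallest possible), and it was the member at p = 0.0498 in the methods' t-test.

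MRPL52 and MRPL51, which have no bacterial counterpart, and MRPS28, which is named as the counterpart of bacterial S1, completed the 5 members with the lowest p among those above 0. MRPL52 had values of 10.69, 10.56 and 10.94 in control and 10.98, 10.83 and 10.80 in Stau1 arrays, so that control replicate 3 lay above 2 of the 3 Stau1 arrays (change 0.14, SE 0.11). MRPS28 had 10.37, 10.92 and 10.88 in control and 10.996, 10.72 and 10.84 in Stau1 arrays (change 0.13, SE 0.14). Its estimate rested on control replicate 1, the only low array: without it the change was -0.05. MRPL51 had 12.96, 13.10 and 13.10 in control and 13.16, 13.16 and 13.09 in Stau1 arrays (change 0.08, SE 0.08).

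Among members with negative changes, MRPL33, a homologue of bacterial L33, came first. Its values were 12.84, 12.63 and 12.41 in control arrays and 12.48, 12.50 and 12.46 in Stau1 arrays. The Stau1 arrays were tight (SD 0.02), the controls were not (SD 0.21), and the lowest array of all was a control. The change was -0.14 (SE 0.10; limma, adjusted p = 0.999; exact two-sided permutation p = 0.4). Without control replicate 1 it was -0.04.

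MRPL40, whose gene lies in the region deleted in 22q11 deletion syndrome, had 11.32, 11.46 and 11.34 in control and 11.16, 11.36 and 11.20 in Stau1 arrays. Stau1 replicate 2 was above control replicates 1 and 3, and the change was -0.13 (SE 0.10; limma, adjusted p = 0.999). MRPS33 had 10.56, 10.91 and 10.67 in control and 10.60, 10.60 and 10.58 in Stau1 arrays (change -0.12, SE 0.11). Here control replicate 1 was the lowest array and control replicate 2 the highest.

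MRPS27, a protein with pentatricopeptide repeats, a fold that binds RNA, had 11.55, 11.34 and 11.29 in control and 11.22, 11.29 and 11.38 in Stau1 arrays (change -0.10, SE 0.10). MRPL37 had 14.04, 13.78 and 14.08 in control and 13.89, 13.83 and 13.92 in Stau1 arrays (change -0.09, SE 0.09). In both, the ranges of the groups overlapped. MRPL37, MRPL51 and MRPS6 were the members that ranked highest in intensity, and since probes differ in how well they hybridise, this is no order of transcript levels.

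**Figure D3:**
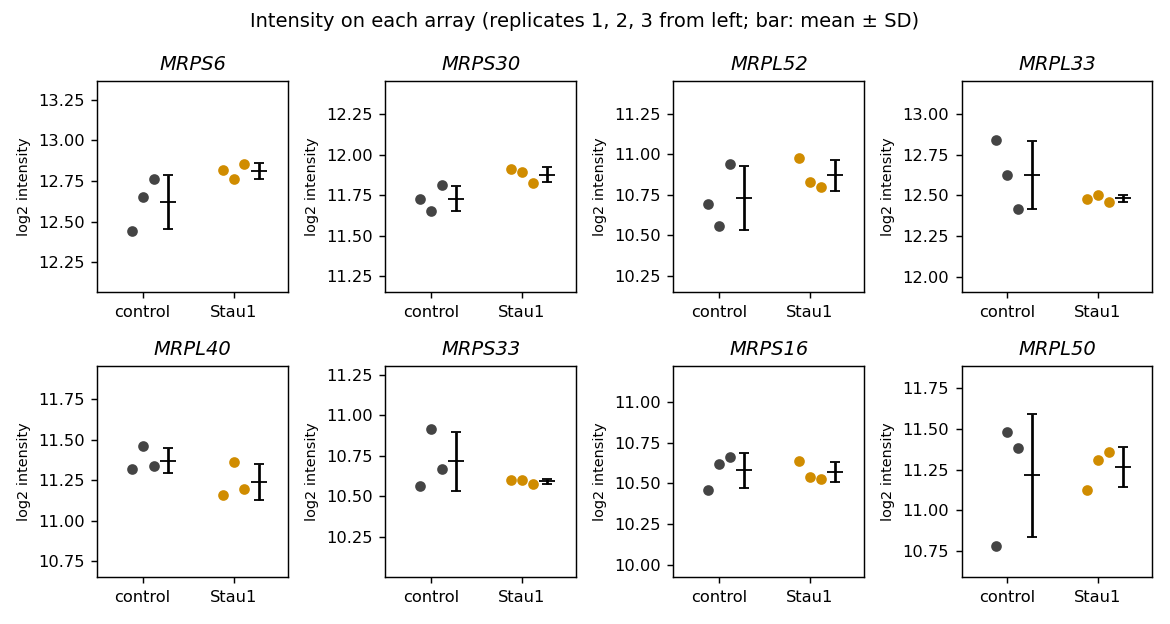
Log2 intensity of 8 members on each array, with replicates 1, 2 and 3 of each group from left to right and bars for the mean and SD (n = 3); every panel spans the same range of log2 units. MRPS30 is the only panel whose groups do not overlap, and MRPL50 shows control replicate 1 at 10.78 below the other 5 arrays.

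MRPS16, a homologue of bacterial S16 that small subunit assembly needs, was the member on the study's list of transcripts bound by Stau1. Its values were 10.46, 10.62 and 10.66 in control arrays and 10.64, 10.54 and 10.53 in Stau1 arrays. The Stau1 values lay inside the control range, and the change was -0.01 (SE 0.10; limma, adjusted p = 0.999). Its 95% interval was -0.23 to 0.20.

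Bacterial S18 has 3 human counterparts, which take different places in the ribosome. MRPS18A, the one found in the large subunit, had 9.64, 9.47 and 9.48 in control and 9.55, 9.44 and 9.56 in Stau1 arrays (change -0.02, SE 0.11). MRPS18B had 10.13, 10.56 and 10.55 in control and 10.47, 10.43 and 10.47 in Stau1 arrays (change 0.04, SE 0.12). MRPS18C, at the S18 site itself, had 11.32, 11.43 and 11.25 in control and 11.37, 11.32 and 11.28 in Stau1 arrays (change -0.01, SE 0.09). In all 3 paralogues the groups overlapped. Of their promoter windows, that of MRPS18A held both motifs, that of MRPS18B AAGATGGC and that of MRPS18C CCGGAAG.

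The steadiest members were MRPS26, MRPS22 and MRPS17. MRPS26 had 12.06, 12.08 and 11.999 in control and 12.02, 12.06 and 12.03 in Stau1 arrays, an SD within groups of 0.03. MRPS22 had 12.12, 12.16 and 12.14 in control and 12.07, 12.12 and 12.16 in Stau1 arrays, an SD of 0.04. The most scattered were MRPL50, MRPL1 and MRPL39, all of the large subunit. MRPL50 had 10.78, 11.48 and 11.38 in control and 11.12, 11.31 and 11.36 in Stau1 arrays, an SD of 0.28. MRPL1, a homologue of a protein of the bacterial ribosome's stalk that lets spent tRNA leave, had 8.33, 8.70 and 8.97 in control and 8.72, 8.90 and 8.45 in Stau1 arrays, an SD of 0.28. MRPL39 had 10.51, 11.06 and 10.91 in control and 10.62, 10.97 and 10.91 in Stau1 arrays, an SD of 0.24. In all 3 the lowest array was control replicate 1.

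Neither subunit's rows separated the groups. The median change was -0.005 over the 47 large subunit rows (23 positive, 24 negative) and -0.011 over the 29 small subunit rows (10 positive, 19 negative), with median absolute changes of 0.033 and 0.044. To set the subunits against each other on 1 array, each value was taken as its deviation from that row's mean over 6 arrays, and medians were formed per subunit. The large minus small difference was 0.024, -0.021 and -0.031 on the control arrays and -0.011, 0.015 and -0.014 on the Stau1 arrays. Both groups thus held values on either side of 0. It averaged -0.009 ± 0.029 over the control arrays (SD, n = 3) and -0.003 ± 0.016 over the Stau1 arrays (SD, n = 3), a difference of 0.006, less than the spread within groups (0.023).

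Counting MRPS30 and MRPS18A with the large subunit and leaving out MRPS36 gave 49 and 26 rows. The medians were -0.005 and -0.010, and the large minus small difference was 0.021, against 0.006 by name. The spread of 0.023 belongs to the split by name, and none was computed for this other split.

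Sorting the members by ancestry gave medians near 0 in every class. The 29 large subunit proteins with a bacterial counterpart had a median change of -0.012 (12 positive), and the 18 mitochondrial additions 0.005 (11 positive). In the small subunit, 18 conserved proteins had a median of -0.010 (6 positive) and 11 additions -0.027 (4 positive). The median absolute change was 0.071 in these 11 additions, 0.034 in the conserved small subunit rows, 0.029 in the conserved large subunit rows and 0.044 in the large subunit additions. All of these medians were below the 0.093 of all kept rows, and 0 rows passed in any class. Against the 0.065 of all rows in the brightest bin, the 11 small subunit additions were above and the other classes below.

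**Figure D4:**
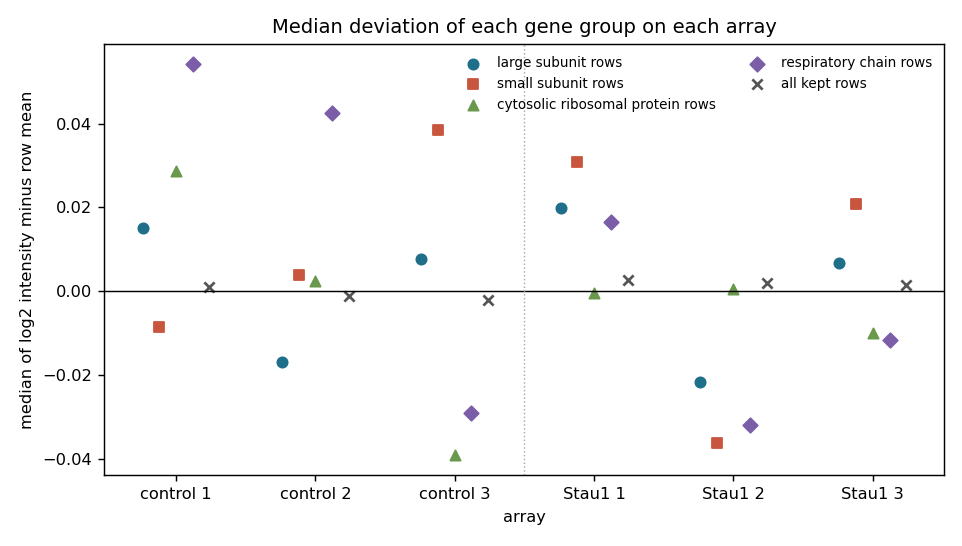
Median over each gene group of the log2 intensity minus the row mean, on each of the 6 arrays: large subunit (circles), small subunit (squares), cytosolic ribosomal proteins (triangles), respiratory chain (diamonds) and all kept rows (crosses). The lowest small subunit value is -0.036 (Stau1 replicate 2) and the highest 0.038 (control replicate 3), and neither subunit separates the groups.

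The members did not move in a common direction from array to array. Over the 2850 pairs of members the median Pearson's r across the 6 arrays was 0.013, and 50.5% of pairs were positive. It was 0.023 within the large subunit, -0.062 within the small subunit and 0.030 between subunits, against -0.0009 over all pairs of kept rows. The cytosolic ribosomal protein rows gave 0.048 and the respiratory chain rows 0.085. These values describe 6 shared arrays, 3 of each group, and carry no test. A median of signed r cannot show that members moved independently, since members that follow the same pattern with opposite signs cancel. The principal component described next took 55.0% of the members' variance.

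Control replicate 1 stood apart in more members than any other array. It was the array farthest from the row mean in 38 of the 76 members (50.0%), against 35.5% of kept rows. The first principal component of the members took 55.0% of their variance and set control replicate 1 (-0.80) against control replicate 2 (0.43). The like share over all kept rows was not computed, so the 55.0% cannot be called particular to the members. Control replicate 1 did not shift the members one way. It was more than 0.2 above the mean of the other 5 arrays in 12 members, with MRPL20, MRPL33 and MRPL28 in front. It was more than 0.2 below in another 12, led by MRPL50 (-0.55), MRPS28 (-0.50) and MRPL1 (-0.42). The large subunit, with 47 of the 76 members, held 10 of those above and 7 of those below. Together both sets are 31.6% of members, against 46.6% of kept rows. The control SD was the larger in 57 of the 76 members, with medians of 0.13 in control and 0.077 in Stau1 arrays, as it was over all kept rows (0.17 and 0.12). The part of this array in the members' changes was measured by leaving it out: 0 members then passed, and the medians were -0.016 for the large and -0.015 for the small subunit.

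**Figure D5:**
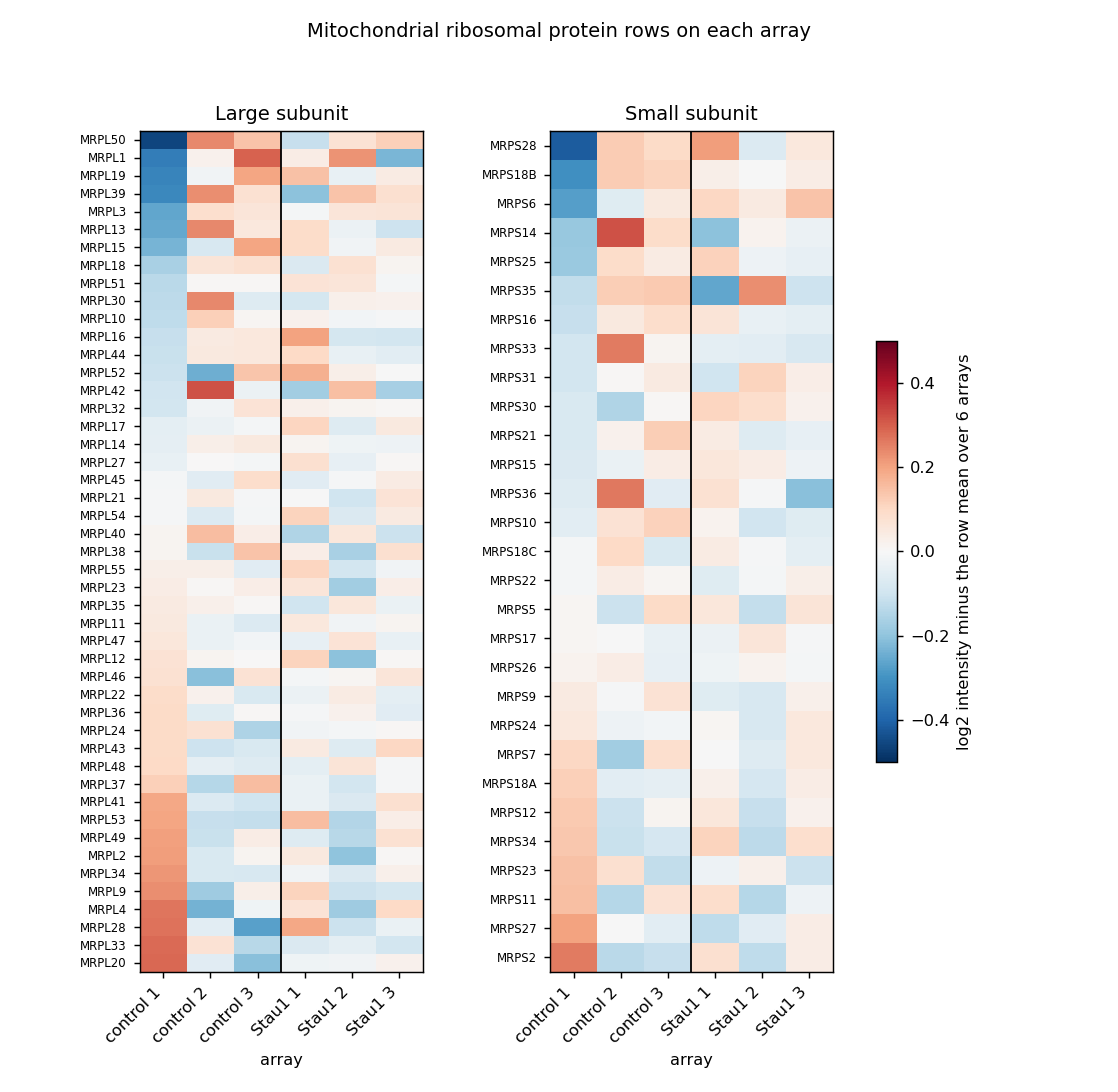
Heat map of the log2 intensity minus the row mean for each member (rows) on each array (columns), large subunit at left and small at right, sorted by control replicate 1; the line divides control from Stau1 arrays. Control replicate 1 holds the deepest negative values, led by MRPL50 and MRPS28, and deviates in both directions, and the Stau1 columns are paler on the whole.

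Genes that work with the mitochondrial ribosome were looked at next, from lists of known roles, and 0 passed the adjusted threshold in any of them. Of 7 ribosomal proteins with names outside the MRPL and MRPS series, 6 were kept, 3 with positive changes and 3 with negative ones. DAP3, the GTP-binding protein of the small subunit, had 11.19, 11.41 and 11.27 in control and 11.04, 11.24 and 11.20 in Stau1 arrays (change -0.13, SE 0.10). GADD45GIP1, at the exit of the large subunit's tunnel, was dim, with 5.98, 5.43 and 6.06 in control and 6.15, 6.22 and 5.94 in Stau1 arrays (change 0.28, SE 0.18). MRP63, a large subunit protein, is a further row that the naming rule does not reach, with a change of 0.12 (SE 0.15).

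Of 14 factors for mitochondrial mRNA and translation, 13 were kept, 3 with positive and 10 with negative changes, a median of -0.052. LRPPRC, which stabilises mitochondrial mRNAs, had 10.24, 10.19 and 9.98 in control and 9.84, 10.05 and 9.85 in Stau1 arrays (change -0.22, SE 0.11; limma, adjusted p = 0.999). Stau1 replicate 2 lay above control replicate 3. MTRF1, a release factor of the family that ends translation, had a change of 0.26 (SE 0.20).

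Of 20 assembly factors 19 were kept, with a median of -0.040, 7 of them positive. GTPBP5, a GTPase of large subunit assembly, had 5.40, 5.06 and 5.35 in control and 5.47, 5.50 and 5.51 in Stau1 arrays (change 0.22, SE 0.14), without overlap but close to background. DDX28, an RNA helicase of the same process, had a change of -0.20 (SE 0.13). All 17 mitochondrial aminoacyl-tRNA synthetases on the list were kept, 5 positive and 12 negative, with a median of -0.036. RARS2 and IARS2, which charge tRNAs with arginine and isoleucine, had changes of -0.17 (SE 0.11) and -0.18 (SE 0.12).

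The list of mitochondrial transcription factors and nuclear regulators held the only related genes at an unadjusted p under 0.05. Of its 11 kept rows 2 were at that level, both with positive changes, against 2.4% of kept rows in that direction. Both are coactivators of the PGC-1 family, which are known to raise the expression of mitochondrial genes. PPARGC1B had 6.36, 5.87 and 6.23 in control and 6.73, 6.48 and 6.79 in Stau1 arrays, without overlap (change 0.51, SE 0.17; limma, adjusted p = 0.999). PPRC1 had 10.29, 10.13 and 10.45 in control and 10.38, 10.56 and 10.69 in Stau1 arrays, with overlap (change 0.26, SE 0.12; limma, adjusted p = 0.999). Neither passed the adjusted threshold.

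The divergent neighbours and the motif groups were read in the same fit. Of the 19 divergent partners 16 were kept, and 0 of these were at an unadjusted p under 0.05. Their changes ran from -0.28 (PTCD2, beside MRPS27) to 0.20 (PPP1R10, beside MRPS18B). MRPL46 and MRPS11, which face each other across 320 bases, had changes of 0.04 and -0.05. Members with CCGGAAG had a median change of -0.010 and those without it -0.007, and for AAGATGGC the medians were -0.012 and -0.002.

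Set beside the other large groups of housekeeping genes, the members had changes of a like size. Cytosolic ribosomal protein rows (83 kept of 87) had a median change of -0.007 and a median absolute change of 0.041. Of these rows 2 (2.41%) were at an unadjusted p under 0.05 in limma, against 3.73% of kept rows. Respiratory chain rows (73 kept of 81), whose mitochondrially made partners are the products of this ribosome, had a median change of -0.032, 23 of them positive, and a median absolute change of 0.040, with 0 rows at that level. On single arrays the respiratory chain medians were 0.054, 0.042 and -0.029 in control and 0.017, -0.032 and -0.012 in Stau1 arrays, so that control replicate 3 lay among the Stau1 arrays.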

How the data were processed

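Total RNA from 6 samples was measured on Illumina HumanWG-6 v3 BeadChips. Per the file headers, the authors deposited a BeadStudio gene profile without normalization: a signal intensity per gene and array, a detection p-value against negative control beads, a standard error over beads (in units of signal) and a mean number of beads (used here as a score of coverage, as deposited). The number of arrays limits the precision. Genome build and probe positions were not given in the sources used here. Groups came from the sample titles.

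Intensities were corrected by normexp (offset 16), with the background inferred from the detection p-values of the 30932 rows of 1 probe, then quantile normalized and taken to log2 (limma 3.58.1, R 4.3.3). A row was kept if it was detected (p under 0.05) on 3 or more of the 6 arrays. Groups were compared with lmFit and eBayes with a variance trend, and Benjamini-Hochberg adjustment ran over all kept rows. The methods' t-test, stated by the study for other RNA, was run two-sided with equal variances. Only under the replicate block was a paired t-test used in its place. The fit was tested on simulated data. Summaries used Python 3.11.15 with pandas 2.3.3, numpy 2.4.6 and matplotlib 3.10.9. Same-numbered arrays were checked for pairing.

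Members and gene lists were chosen with earlier results of these data known. The members named were the 5 per direction with the lowest p, MRPS16, the MRPS18 paralogues, those not detected on enough arrays (0), the 3 with the largest and the smallest SD and the 3 brightest, and for each other list the 2 rows of lowest p. MRPS14, MRPL20 and MRPL28 and the divergent neighbours were named after their values were seen. MRPS28 was moved to the class with bacterial counterparts after its values were seen. Older symbols were matched through RefSeq for 12 listed genes, and GABPB1 and GABPB2, whose older names were ambiguous, were left out. Protein sequences were not used here. Alternatives left out the background correction, the filter, the variance trend or 1 array at a time. Others took the background from all rows, raised the offset to 50, filtered at 0.01 on all arrays, used median scaling or cyclic loess, or added array weights or a replicate block, and, chosen after seeing the data, placed MRPS30 and MRPS18A in the large subunit without MRPS36.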

Additional observations from a re-analysis of the deposited data

How the results depend on the processing

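The count of members past the adjusted threshold was 0 under all 10 alternatives with 6 arrays and all 6 fits without 1 array. The lowest adjusted p of a member was 0.265, without control replicate 3, where limma called 39 rows in all (0.294%) and 1696 at an unadjusted p under 0.05 (12.8%); 3 members were then at that level, MRPS6 (0.27), MRPL33 (-0.26) and MRPL52 (0.24). With array weights 2 were (MRPS6 and MRPL42), against 1298 of 13285 rows. With no filter 1 was (MRPS6), against 1564 of 37879 rows, and without control replicate 2 also 1 (MRPL37), against 309 of 13285. Leaving out control replicate 1 instead brought MRPS6 (0.098), MRPL33 (-0.039) and MRPL52 (0.12) nearer to 0 than in the main fit.

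Median scaling moved the median of all kept rows to 0.0660, the large subunit to 0.0816 and the small to 0.0695. Without 1 array the large subunit median ran from -0.0157 to 0.0142, the small from -0.0291 to 0.00163 and large minus small from -0.0267 to 0.0228. The methods' t-test gave 0 members with cyclic loess (476 of the 13285 kept rows) and 0 with the background from all rows (464 kept rows). It gave 0 to 3 members without 1 array (304 to 1288 kept rows). With the replicate block, a paired t-test on same-numbered arrays took its place and gave 3 members (622 kept rows). Members whose groups did not overlap numbered 2 to 11 of 76 without 1 array, against 1682 to 3862 of the 13285 kept rows. There were 11 without control replicate 1 (2408 kept rows) and 10 without control replicate 3 (3862 kept rows). With cyclic loess there were 2, against 1057 kept rows. The cause of these moves was not tested.

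Of 20 named members, 9 kept their sign throughout. Array weights reversed MRPL1 (-0.121), MRPL39 (-0.0495), MRPL50 (-0.0220), MRPS18A (0.0284) and MRPS18B (-0.0166). Median scaling, which shifts all rows, reversed MRPS16 (0.0695), MRPS18A (0.0708), MRPS18C (0.0665), MRPS22 (0.0554) and MRPS26 (0.0864), and cyclic loess MRPS26 (0.0144). Without 1 array, ranges crossing 0 were -0.150 to 0.172 for MRPL1, -0.151 to 0.129 for MRPL39, -0.169 to 0.182 for MRPL50, -0.0747 to 0.0275 for MRPS16, -0.00604 to 0.0383 for MRPS17, -0.0444 to 0.0390 for MRPS18A, -0.0986 to 0.118 for MRPS18B, -0.0510 to 0.0372 for MRPS18C, -0.0339 to 0.00530 for MRPS26 and -0.0490 to 0.224 for MRPS28.

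Same-numbered arrays were not read as pairs in the main results. Their deviations correlated at 0.02, 0.26 and -0.14 over kept rows and at 0.25, 0.51 and -0.10 over the members. With the replicate block, 0 members passed and 0 were at an unadjusted p under 0.05 in limma. The filter at a detection p under 0.01 kept 72 members.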
